A study of Mus musculus with 18 samples.

Results

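The genes described here carry antigen presentation by MHC class II, and they were followed in laser-captured areas of the mouse thyroid. The set was defined by name and holds 9 genes, H2-Aa, H2-Ab1, H2-Eb1, Cd74, H2-DMa, H2-DMb1, H2-Oa, H2-Ob and Ciita, of 27670 genes with a probe on the array. All non-control probes named for one of them were taken, which gave 14 of 41174 probes, and the Ciita probe carries the older name C2ta. Of the 9 genes, 7 passed the filter on dim probes (tissue signal well above background on at least 3 arrays) and were tested among 14664 genes. H2-Aa and H2-Ob did not pass.

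The study set thyroid areas after partial thyroidectomy, called dissected in the labels, against normal thyroid. There were 5 arrays of the dissected central area, 5 of the normal central area, 5 of the dissected peripheral area and 3 of the normal peripheral area. All tissue came from male C57BL/6 mice, and the areas were cut from frozen sections of the right or left lobe. Age, the time between surgery and sampling, and the mouse behind each area are not given in the labels, so areas may share animals, and p-values over areas may then be too small. Tissue RNA was amplified and labelled with Cy5, and each array also carried a Cy3-labelled mixture of Swiss Webster RNA from 10 sources, spleen and thymus among them. Levels below are log2 ratios of tissue over that mixture, so a ratio of 0 means equal normalised signal, and a difference between groups is one of mean ratios.

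MHC class II molecules display peptides from proteins taken up by a cell to CD4+ T cells. An alpha and a beta chain pair in the endoplasmic reticulum with the invariant chain, encoded by Cd74, which blocks the peptide groove until it is degraded in endosomes. H2-DM then exchanges its last fragment for antigenic peptide, and H2-O restrains H2-DM. Ciita is the coactivator that switches the whole set on, constitutively in dendritic cells and B cells and after interferon gamma in macrophages and many epithelial cells. Thyroid follicular cells can be induced to carry class II in inflamed glands, while in a healthy gland it is known mainly from interstitial immune cells. C57BL/6 mice carry a deletion in the promoter of H2-Ea and make no I-E molecule, so their H2-Eb1 chain has no regular partner.

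Class II promoters are known for an X box, bound by the RFX complex, followed by a Y box, bound by NF-Y, on which Ciita is assembled. The promoters of chromosome 17 members found to hold a Y box are shown so that the elements themselves can be seen. Of these genes 2, H2-Aa and H2-Ob, were not tested, and the other 3 followed each other weakly across the arrays (r = 0.22 to 0.39). The RefSeq table of the build GRCm38.p6 gives windows of 250 bases before the start for H2-Aa, H2-Eb1, H2-DMa, H2-DMb1, H2-Oa and H2-Ob, all on chromosome 17, and both strands were searched for the Y box core TGATTGG and the X box core AACNNATGA, which share no bases in these windows. The stretch of 87 bases around the Y box reads as follows on the gene's own strand, 5′ to 3′, with each match to the 2 cores in capitals.
H2-Eb1, chr17:34305746-34305832, plus strand: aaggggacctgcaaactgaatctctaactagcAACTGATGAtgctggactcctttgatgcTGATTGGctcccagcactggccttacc
H2-DMb1, chr17:34153068-34153154, plus strand: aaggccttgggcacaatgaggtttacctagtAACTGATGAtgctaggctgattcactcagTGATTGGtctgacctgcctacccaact
H2-Ob, chr17:34238786-34238872, plus strand: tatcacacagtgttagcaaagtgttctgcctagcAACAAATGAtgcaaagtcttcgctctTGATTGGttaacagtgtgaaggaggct
H2-Oa, chr17:34092274-34092360, plus strand: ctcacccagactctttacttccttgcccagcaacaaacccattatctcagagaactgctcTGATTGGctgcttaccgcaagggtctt
H2-Aa, chr17:34287847-34287933, minus strand: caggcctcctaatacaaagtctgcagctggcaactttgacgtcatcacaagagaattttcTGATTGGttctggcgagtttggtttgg
The 5 stretches were chosen for holding the Y box letters. These letters start 61 bases before the start of H2-Eb1, 63 before H2-DMb1, 59 before H2-Ob, 45 before H2-Oa and 50 before H2-Aa. The X box letters ended 19 bases ahead of the Y box in H2-Eb1, 20 in H2-DMb1 and 17 in H2-Ob. Neither set of letters was found in the windows of H2-DMa. Among 32851 promoter windows of the table, 7.23% held the Y box letters, 2.49% the X box letters and 0.265% both.

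The probes first show which of these genes gave a tissue signal at all. H2-Ab1, the beta chain of I-A, H2-Eb1, Cd74 and H2-DMb1, the beta chain of H2-DM, were well above background on 18 of 18 arrays. The brighter of 2 H2-Oa probes was above background on 13 arrays, Ciita on 9 and H2-DMa on 4. Each of the 2 H2-Aa probes was above background on 1 array, of the dissected peripheral area, and the H2-Ob probe on 0 arrays. No probe of H2-Ea, H2-Eb2 or H2-DMb2, the related class II genes outside the set, passed the filter. The reference gave signal above background for the same 4 genes on 18 arrays, but for neither H2-Aa probe and not for H2-Ob, although spleen and thymus are rich in class II cells.

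**Figure D1:**
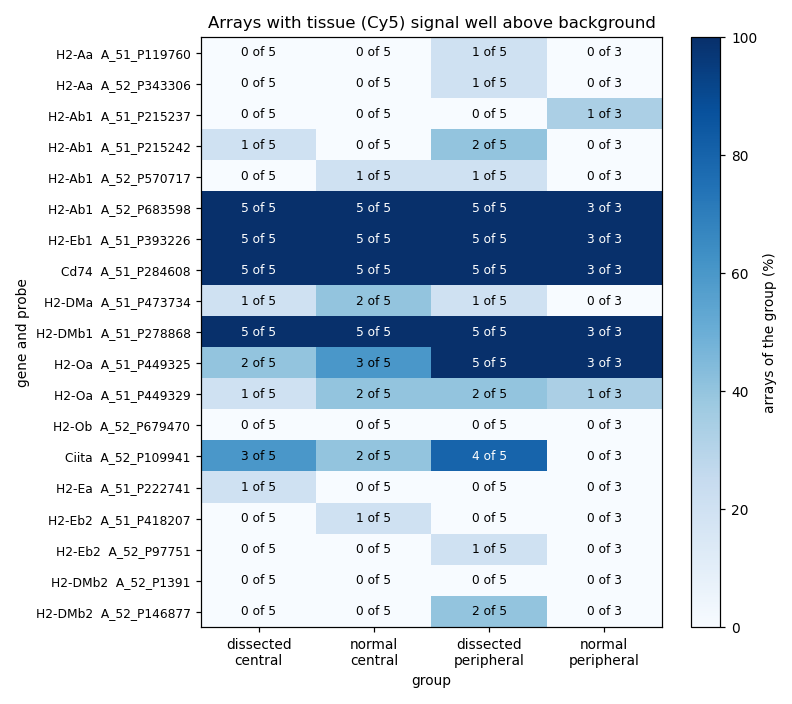
Number of arrays on which each probe's tissue (Cy5) signal was well above background, by group (columns) for each class II gene and probe (rows), with colour for the percentage of the group's arrays. 4 probes, 1 each of H2-Ab1, H2-Eb1, Cd74 and H2-DMb1, reached this on 18 of 18 arrays, and Ciita on 3 of 5 dissected central, 2 of 5 normal central, 4 of 5 dissected peripheral and 0 of 3 normal peripheral arrays.

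The 4 probes of H2-Ab1 disagreed. Probe A_52_P683598, at chr17:32346939-32346998 on build mm7, had net Cy5 intensities of 248 to 3382 and stands for the gene. Probe A_51_P215237, at chr17:32345268-32345327, was printed 10 times on each array, yet only 13 of its 180 spots were above background, and its mean ratio varied by 0.11 (SD over 18 arrays). The SD among those spots on one array ranged from 0.022 to 0.14, with a median of 0.093. Probes A_51_P215242 and A_52_P570717 were above background on 3 and 2 arrays. All H2-Ab1 values below therefore rest on 1 probe. The files place the H2-Eb1 probe at chr17:32392430-32392891, that of H2-DMb1 at chr17:32236685-32236744, the brighter H2-Oa probe at chr17:32174944-32175003 and that of Ciita at chr16:10203747-10203806 (mm7). Whether a probe lies in a coding or a non-coding part of its transcript was not worked out, for lack of an mm7 sequence.

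The share of gene probes above background ran from 24.7% to 44.0% over the 18 arrays, and 4 arrays lay under 30%, namely dissected central 1 and 2, dissected peripheral 1 and normal peripheral 1. The thyroid label matched its markers, since Tg and Nkx2-1 were above background on every array, although Slc5a5 and Foxe1 were so on 0 arrays. The 5 slides each held arrays of 3 or 4 groups, and the replicate number names the slide except for normal peripheral 3. Calls of differing genes were made with limma at a Benjamini-Hochberg adjusted p under 0.05 over 14664 genes.

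Ciita, the master coactivator, was dim. Its ratios on replicates 1 to 5 were -0.062, -0.024, 0.29, 0.26 and 0.59 in the dissected central area, against 0.38, -0.093, -0.011, -0.051 and -0.25 in the normal central area. They were -0.083, 0.135, 0.080, 0.19 and 0.91 in the dissected peripheral area, against 0.013, -0.24 and -0.20 in the normal peripheral area. Dissected peripheral 5 and dissected central 5 were the highest of all arrays, and both came from slide 5. Tissue signal was above background on 4 of 5 dissected peripheral and on 0 of 3 normal peripheral arrays. The normalised Cy5 signals had log2 means of 7.09 in the dissected and 6.75 in the normal peripheral area. On the arrays measured, this puts the dissected peripheral mean at least 1.21-fold above the normal peripheral one. This bound sets the mean of the 5 dissected arrays against the higher of the probe's own signal and the dimmest signal above background on each normal array, and dye bias is not balanced by swaps. It carries no sampling error, so it shows no difference beyond these arrays. Its dissected mean includes dissected peripheral 5, with a net Cy5 intensity of 313, against 60 to 114 on the other dissected peripheral arrays. The fitted difference of the ratios was 0.39 (SE 0.21, 95% interval -0.04 to 0.82, limma adjusted p = 0.627). Without the dissected arrays of slide 5 it was 0.22 (limma adjusted p = 0.659). With Feature Extraction's own log ratio it was 1.27 (limma adjusted p = 0.467), and the authors' deposited table gave 1.30 (limma adjusted p = 0.465).

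H2-Ab1, whose product pairs with that of H2-Aa, had ratios of -0.24, 0.30, -0.41, -0.43 and 1.31 in the dissected central area, against -0.25, -0.60, -0.27, -0.51 and -0.96 in the normal central area. In the dissected peripheral area they were -0.38, 0.009, -0.14, 0.65 and 0.97, against 0.26, -0.52 and 0.065 in the normal peripheral area. The groups overlapped in both areas, and the 2 dissected arrays of slide 5 were the highest of the 18. Their net Cy5 intensities were 3382 and 3121, against 847 on the normal central array of that slide, with Cy3 intensities of 691 and 697 against 886. H2-Ab1 averaged 0.11 ± 0.73 in dissected central arrays, against -0.52 ± 0.29 in normal central ones (SD, n = 5 each), a difference of 0.62 (SE 0.32, 95% interval -0.04 to 1.29, limma adjusted p = 0.956). Without the dissected arrays of slide 5 this difference was 0.32 (limma adjusted p = 0.998).

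H2-Eb1, the beta chain of I-E, had ratios of -0.20, -0.31, -0.37, -0.34 and 0.54 in the dissected central area, against -0.22, -0.28, -0.41, 0.17 and -0.85 in the normal central area. In the dissected peripheral area they were -0.35, -0.11, -0.24, 0.27 and 0.68, against -0.051, -0.55 and -0.12 in the normal peripheral area. The same pair of slide 5 arrays was highest, normal central 5 on that slide was lowest, and the other dissected central arrays lay within the range of the normal central ones. The difference between the central groups was 0.18 (SE 0.23, 95% interval -0.30 to 0.66, limma adjusted p = 0.998), and 0.010 without the dissected arrays of slide 5.

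Cd74, the invariant chain, had ratios of -0.28, -0.32, -0.435, 0.40 and 0.29 in the dissected central area, against -0.36, -0.76, -0.91, -0.072 and -0.86 in the normal central area. In the dissected peripheral area they were -0.57, -0.51, -0.46, 1.01 and 0.55, against 0.64, -1.03 and 0.007 in the normal peripheral area. Here dissected peripheral 4 was highest, and the 3 normal peripheral arrays ran from the lowest to the second highest value of all arrays. Dissected central exceeded normal central on 5 of 5 slides, by 0.086 to 1.15, while the groups overlapped. The fitted difference was 0.52 (SE 0.34, 95% interval -0.18 to 1.23, limma adjusted p = 0.998). It was 0.43 without the dissected arrays of slide 5, with an adjusted p of 0.998 in that limma fit.

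**Figure D2:**
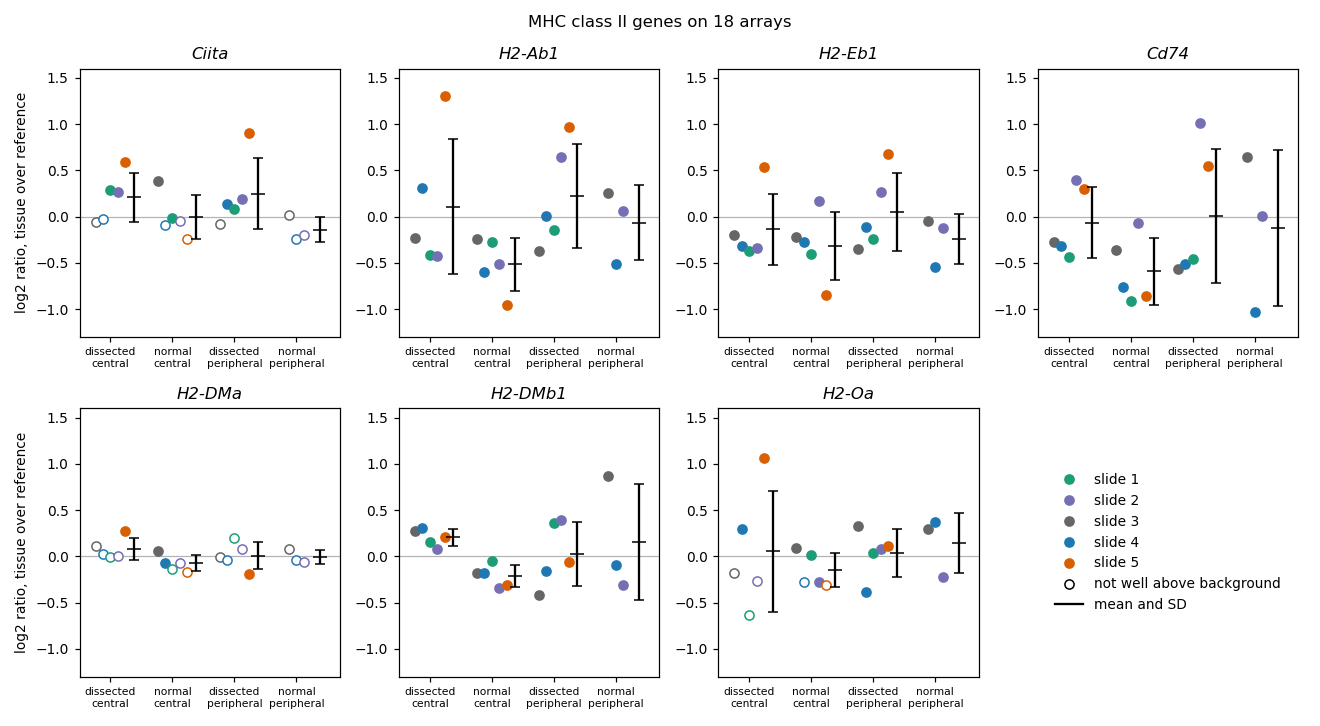
Log2 ratio of tissue over reference (y axis) of the 7 tested class II genes, by group (x axis); each point is 1 array coloured by slide, open where the tissue signal was not well above background, and bars give mean and SD (n = 5, 5, 5 and 3). The dissected arrays of slide 5 are at the top for Ciita, H2-Ab1 and H2-Eb1, and for H2-DMb1 the dissected central arrays (0.083 to 0.31) all lie above the normal central arrays (-0.34 to -0.049).

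H2-DMb1 was the member whose central groups did not overlap. Its ratios were 0.27, 0.31, 0.16, 0.083 and 0.21 in the dissected central area, against -0.18, -0.18, -0.049, -0.34 and -0.30 in the normal central area. In the dissected peripheral area they were -0.42, -0.16, 0.36, 0.39 and -0.064, against 0.87, -0.094 and -0.31 in the normal peripheral area. All dissected central arrays thus lay above all normal central ones, whereas the peripheral groups overlapped widely. Among all tested genes, 63 (0.430%) had dissected central arrays all above the normal central ones. H2-DMb1 averaged 0.21 ± 0.092 in dissected central arrays, against -0.21 ± 0.12 in normal central ones (SD, n = 5 each). This is a 1.34-fold difference (log2 0.42, SE 0.19, 95% interval 0.01 to 0.82, limma adjusted p = 0.935), and it was not called. The within-slide difference was positive on 5 of 5 slides, from 0.20 to 0.52, and the fitted difference was 0.42 without the dissected arrays of slide 5, 0.32 on scan day 1 and 0.49 on scan day 2.

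H2-DMa, the alpha chain of H2-DM, was close to background, with all ratios between -0.19 and 0.27. It was above background on 1 of 5 dissected central, 2 of 5 normal central, 1 of 5 dissected peripheral and 0 of 3 normal peripheral arrays. Dissected central 5 was again its highest array. The difference between the central groups was 0.16 (SE 0.10, limma adjusted p = 0.998) and 0.11 without the dissected arrays of slide 5, and no fold can be given against the normal peripheral area.

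H2-Oa, the alpha chain of the H2-DM inhibitor H2-O, had ratios of -0.18, 0.30, -0.63, -0.27 and 1.06 in the dissected central area, against 0.089, -0.27, 0.011, -0.27 and -0.30 in the normal central area. In the dissected peripheral area they were 0.33, -0.38, 0.036, 0.083 and 0.11, against 0.30, 0.37 and -0.22 in the normal peripheral area. Dissected central 5 stood highest and dissected central 3 lowest of all arrays, so the dissected central group spanned the whole range. The difference between the central groups was 0.21 (SE 0.24, limma adjusted p = 0.998), and it was -0.04 without the dissected arrays of slide 5. The second H2-Oa probe, above background on 6 arrays, ran from -0.28 to 0.38.

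The change after partial thyroidectomy in the central area was thus above 0 for 7 of 7 tested members, against 48.7% of all genes. The members share arrays, so their signs are not independent. Their median was 0.21 against -0.006 over all genes, and none was called. In that comparison limma called 0 of 14664 genes (0%), while 768 genes (5.24%) and 1 member, H2-DMb1, had an unadjusted p under 0.05. In the peripheral area 5 of 7 members were above 0, against 51.0% of all genes. Their median was 0.13 against 0.006 over all genes. Again 0 members and 0 genes (0%) were called by limma, and 1224 genes (8.35%) and 0 members had an unadjusted p under 0.05. The median 95% half-width of a member's difference was 0.48 in the central and 0.55 in the peripheral comparison on the log2 scale, with a range over members of 0.21 to 0.71 in the central one. Without the dissected arrays of slide 5 the medians were 0.12 and 0.065, with 6 and 4 of 7 members above 0. On scan day 1 alone the central count was 4 of 7, with H2-Ab1 at -0.03, H2-Eb1 at -0.24 and H2-Oa at -0.32, and on scan day 2 alone it was 7 of 7.

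**Figure D3:**
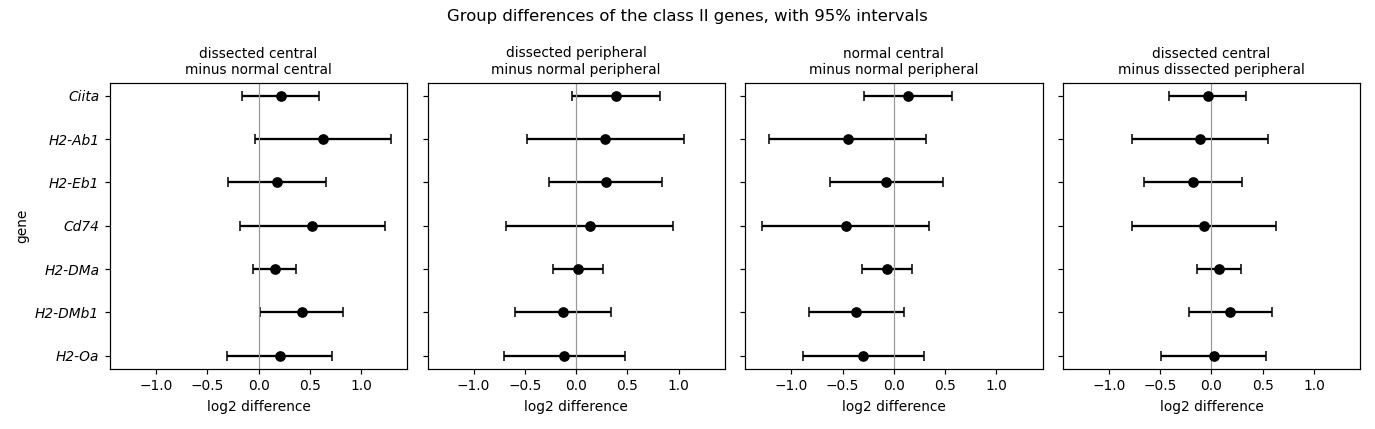
Log2 difference (x axis) of the 7 tested class II genes (y axis) in 4 comparisons, with points for the fitted difference and bars for its 95% interval (limma, 18 arrays). In the first panel 7 of 7 points lie above 0, against 48.7% of all genes, and the interval of H2-DMb1 (0.01 to 0.82) is the one that does not include 0.

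Between areas, 6 of 7 members were below 0 in the normal gland, central minus peripheral, with a median of -0.30 against 0.01 over all genes. Of all genes, 52.3% were above 0 there. H2-Ab1 differed by -0.45 (SE 0.36, limma adjusted p = 0.769), Cd74 by -0.47 (SE 0.39, limma adjusted p = 0.778) and H2-DMb1 by -0.36 (SE 0.22, limma adjusted p = 0.677), while Ciita differed by 0.14 (SE 0.21, limma adjusted p = 0.898). In this comparison limma called 41 genes (0.280%) and 0 members, and 1259 genes (8.59%) and 0 members had an unadjusted p under 0.05. The peripheral group has 3 arrays, and without normal peripheral 1, an array with few probes above background, the members' median was -0.03, Cd74 differed by -0.08 and H2-DMb1 by -0.008, and 2 of 7 members were above 0. On scan day 1 alone, where normal peripheral 3 is the sole array of its group, 4 of 7 members were above 0, and the median was 0.0015. In dissected glands the members' median was -0.04 against -0.002 over all genes, and 3 of 7 were above 0, against 49.5% of all genes. Here limma called 86 genes (0.586%) and 0 members, with 1089 genes (7.43%) and 0 members at an unadjusted p under 0.05.

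The areas were also compared in their change after dissection, central change minus peripheral change. H2-DMb1 gave the largest difference among the members, 0.55 (SE 0.29, 95% interval -0.07 to 1.17, limma adjusted p = 0.79), and the members' median was 0.32. In this comparison limma called 0 genes (0%) and 0 members, and 853 genes (5.82%) and 0 members had an unadjusted p under 0.05. Without normal peripheral 1 the H2-DMb1 value was 0.19. On scan day 1 alone, with normal peripheral 3 as the sole array of its group, the H2-DMb1 value was -0.37, and the members' median was -0.21.

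By group mean, Ciita, H2-Ab1, H2-Eb1 and Cd74 had the same order at the top, dissected peripheral and then dissected central. The gap between these neighbours was 0.04 to 0.18, less than the larger SD of the pair. Dissected central came first for H2-DMa and H2-DMb1, and normal peripheral for H2-Oa. By median, normal peripheral stood highest for H2-Ab1 (0.065, dissected peripheral 0.009) and Cd74 (0.007, dissected peripheral -0.46). The highest median was dissected central for Ciita (0.26, dissected peripheral 0.135) and dissected peripheral for H2-Eb1 (-0.11). For H2-Ab1 the normal peripheral mean of -0.07 and the normal central mean of -0.52 differed by 0.45, more than the larger SD of 0.40. No other neighbouring groups of a tested member differed beyond their spread.

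The members moved together to different degrees across the 18 arrays. After centring each gene, the correlation with the mean of the other 6 tested members was 0.90 for H2-Ab1, 0.80 for H2-Eb1, 0.70 for Cd74 and 0.63 for Ciita, and 0.46 to 0.47 for H2-DMa, H2-DMb1 and H2-Oa (Pearson, n = 18 arrays). It was also computed without the 2 arrays on which the mean of the other 6 members lay farthest from its median. These 2 arrays were picked anew for each gene, and they were not the dissected arrays of slide 5 for every gene. The correlation was then 0.82, 0.69, 0.71 and 0.56 for the first 4 genes, 0.67 for H2-DMa, 0.63 for H2-DMb1 and 0.19 for H2-Oa. The closest pair was H2-Ab1 and H2-Eb1 (r = 0.85, Spearman's rho = 0.73), and the chains of H2-DM, H2-DMa and H2-DMb1, had r = 0.59. These correlations describe arrays that share slides, one reference and 4 groups, and low signals weaken them.

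The mean of the 7 centred members was highest on dissected central 5 (0.65), dissected peripheral 5 (0.46) and dissected peripheral 4 (0.42), and lowest on normal central 5 (-0.49). Slide 5 therefore held both the highest and the lowest array. Within that slide, dissected central exceeded normal central by 2.26 for H2-Ab1, 1.39 for H2-Eb1, 1.36 for H2-Oa, 1.15 for Cd74 and 0.83 for Ciita. On the other 4 slides the H2-Ab1 difference ran from -0.14 to 0.90.

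**Figure D4:**
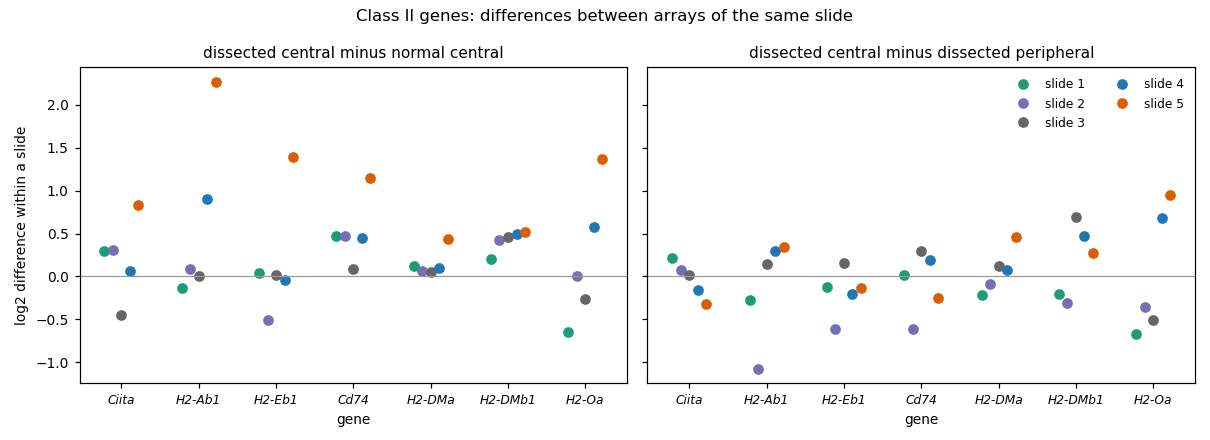
Log2 differences between arrays of one slide (y axis) for the 7 tested class II genes (x axis), dissected central minus normal central (left) and dissected central minus dissected peripheral (right); each point is 1 slide. On the left the points of slide 5 are highest for all 7 genes and reach 2.26 for H2-Ab1, while H2-DMb1 lies between 0.20 and 0.52 on the 5 slides.

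Genes most like the class II members were sought among the other tested genes. The 10 highest correlations with the members' mean were those of Cd52, Ankrd26, Cd300c2, Il11, Tdrd5, Fam210a, Wipf2, Sirpb1a, Dusp9 and Fads2, from 0.82 down to 0.76 (Pearson, n = 18 arrays). Cd52 encodes a small surface glycoprotein of leukocytes, and it kept r = 0.80 without the 2 slide 5 arrays. Its ratios were 0.0001 to 1.16 in dissected central (median 0.30), against -0.68 to -0.15 in normal central arrays (median -0.26), and the groups did not overlap. Cd52 was chosen for following the members' mean, so this separation is not independent of theirs. Among all tested genes 0.430% had dissected central arrays all above the normal central ones, and limma called 0 genes between these groups. In the dissected peripheral area Cd52 ran from -0.46 to 1.37 (median 0.096), against -0.54 to 0.67 in the normal peripheral area (median -0.39). Cd300c2, a myeloid surface receptor, had r = 0.80, and 0.64 without those arrays.

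The steps around class II were described with lists of genes. Of 13 endosomal proteases and related genes, which cut the invariant chain and antigens or act beside them, 13 were tested and 0 were called in either dissected comparison. Their differences were above 0 for 11 in the central area (median 0.26) and 10 in the peripheral area (median 0.41). Ctss encodes cathepsin S, the main protease of the invariant chain in dendritic cells and B cells. Its ratios were 0.52, 0.41, -0.25, -0.11 and 0.75 in dissected central arrays, against -0.67 to -0.08 (median -0.31) in normal central arrays, a difference of 0.61 (SE 0.24, limma adjusted p = 0.869). In the periphery Ctss differed by 0.80 (SE 0.28, limma adjusted p = 0.524), and its highest arrays were dissected peripheral 4 and dissected central 5.

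Of 12 transcription factors and partners of class II promoters, 7 were tested, 0 were called in any comparison, and Rfx5, Nfyc and Spi1 were above background on 0 arrays. Irf1, which drives an interferon-inducible Ciita promoter, differed by 0.57 between the peripheral groups (SE 0.24, limma adjusted p = 0.575). Of 16 genes of the interferon gamma response, 12 were tested and 0 called, with medians of 0.04 in the central and 0.14 in the peripheral area. The chemokine gene Cxcl10 had the smallest p in each, with differences of 0.50 (SE 0.33, limma adjusted p = 0.998) and 0.91 (SE 0.38, limma adjusted p = 0.575). Of 16 genes of MHC class I presentation, 12 were tested and 0 called, with medians of 0.02 and 0.22. The class I heavy chain gene H2-K1 differed by 0.75 between the peripheral groups (SE 0.22, limma adjusted p = 0.454), and B2m, its light chain, by 0.22 (SE 0.16, limma adjusted p = 0.747). Of 7 costimulatory genes, 4 were tested and 0 called.

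Captured areas hold several cell types, and fewer cells of a type cannot be told apart from less RNA per cell. Of 17 macrophage and monocyte markers 13 were tested and 6 were above background on all arrays, and of 11 dendritic cell markers these numbers were 6 and 2. Of 10 B cell markers 3 were tested, and Cd79a, Cd22 and Blk were above background on 0 arrays. Of 10 T cell markers 5 were tested, and Cd3g and Cd28 were above background on 0 arrays. None of these marker genes was called in any comparison. Dissected minus normal central was above 0 for 9 of 13 macrophage markers (median 0.13), 4 of 6 dendritic markers (median 0.17), 1 of 3 B cell markers (median -0.05) and 1 of 5 T cell markers (median -0.09). Adgre1, the macrophage antigen F4/80, had the smallest p among them in the central area, with a mean of 0.19 ± 0.36 in dissected and -0.72 ± 0.69 in normal arrays (SD, n = 5 each), a difference of 0.91 (SE 0.29, limma adjusted p = 0.698). Itgax, the dendritic cell integrin CD11c, differed by 0.89 there (SE 0.39, limma adjusted p = 0.909). Among the remaining lists, limma called the follicular chemokine Cxcl13 and genes of C cells between the areas, and 0 genes between dissected and normal.

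The arrays with the highest class II levels differed in the markers that stood high beside them. On dissected central 5 the mean of the tested dendritic markers was 0.76 after centring, the highest of 18 arrays, and that of the macrophage markers was -0.19. Much of this dendritic mean comes from Itgax and Clec10a, whose ratios of 1.67 and 1.90 there were each the highest of 18 arrays. On dissected peripheral 5 the dendritic markers stood at -0.23 and the macrophage markers at 0.42, and on dissected peripheral 4 the macrophage markers stood at 0.49. B cell markers were at -0.33 on dissected central 5, the lowest of 18 arrays. The part of these cells in the class II levels was not tested.

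Thymus markers also stood out on one of these arrays. Of 10 such markers 4 were tested, and Foxn1, Rag1, Rag2, Ptcra and Themis were above background on 0 arrays. Their centred mean was 2.70 on dissected central 5 and 1.80 on normal central 3, and it ran from -0.74 to 0.26 on the other 16 arrays. Psmb11, a proteasome subunit of the thymic cortex, had a ratio of 3.71 and Ccl25, a chemokine made by thymic epithelium, one of 3.60 on dissected central 5, against -3.46 to -2.19 and -2.46 to -1.90 on the other dissected central arrays. The other 2 tested markers, the lymphocyte genes Dntt and Cd8b1, were not above background on dissected central 5, with ratios of -0.48 and -0.27, and Cd8b1 was lowest there of 18 arrays. The high mean there thus rests on Psmb11 and Ccl25. On normal central 3 Dntt was highest of all arrays, at 1.66. Psmb11 (0.13) and Ccl25 (0.99) were each second highest there, and Cd8b1 stood at 0.17. On dissected peripheral 5, the array with the second highest class II mean, Psmb11 and Ccl25 were at -3.42 and -2.25. The members' mean on normal central 3 was -0.21. The part of thymus RNA in the levels of dissected central 5, H2-Oa included, was not tested, and the differences of the members without the dissected arrays of slide 5 stand beside their values above.

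**Figure D5:**
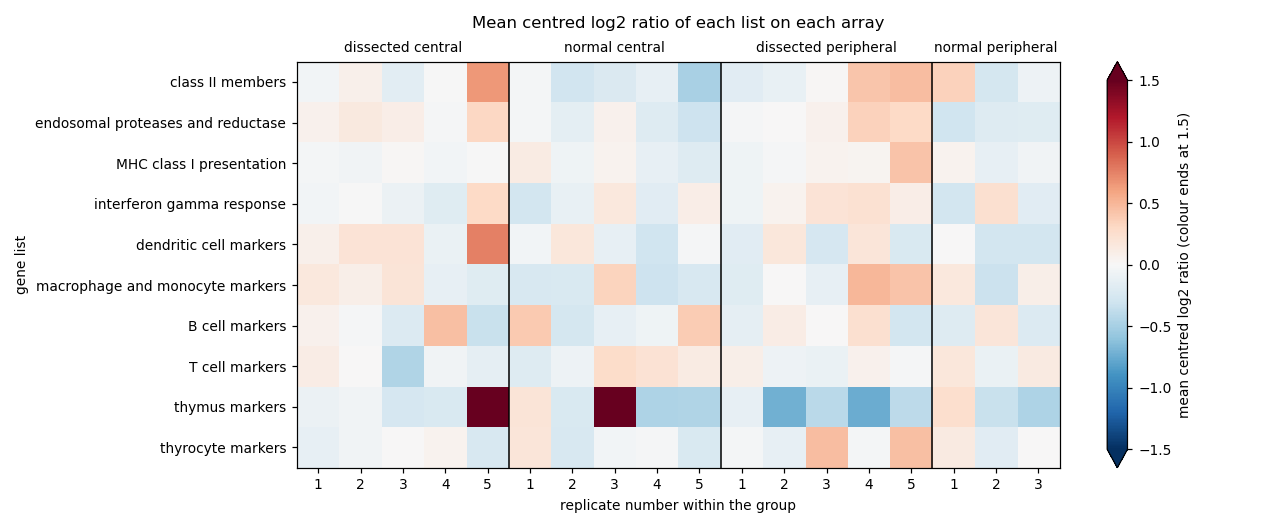
Mean centred log2 ratio (colour, which ends at 1.5) of the tested class II members and of 9 gene lists (rows) on each array (columns, by group and replicate number). Class II is highest on dissected central 5, beside dendritic (0.76) and thymus markers (2.70), and next on dissected peripheral 5, beside macrophage markers (0.42). Much of the dendritic value comes from Itgax and Clec10a, and the thymus value on dissected central 5 rests on Psmb11 and Ccl25.

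Across the 18 arrays, the members' mean correlated with the mean of the endosomal proteases at r = 0.66, of class I presentation at 0.60, of macrophage markers at 0.45, of dendritic markers at 0.43, of thymus markers at 0.36 and of thyrocyte markers at 0.34. Without the dissected arrays of slide 5 these were 0.47, 0.62, 0.59, 0.23, -0.09 and 0.48. Over the 18 arrays the interferon gamma response stood at 0.22, T cell markers at -0.06 and B cell markers at -0.32, and without those arrays at -0.12, 0.08 and -0.003. Endothelial markers stood at -0.27, C cell markers at -0.26 and the class II transcription factors at 0.007, and without those arrays at -0.47, -0.41 and -0.41. Thyrocyte markers were second highest on dissected peripheral 5 and lowest on dissected central 5. They are descriptions of arrays that share slides and a reference, with no test.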

How the data were processed

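Per the file headers, the deposited scanner files hold spot and background intensity in both channels and a log10 ratio of processed Cy5 over Cy3 from Agilent Feature Extraction 9.5.1.1. Version 8.5.1.1 is named in the submitters' processing notes. The authors also deposited linear ratios of each array, with no processing given in the sources used here; its columns correlated at 0.9946 or more with the scanner ratios, in the direction Cy5 over Cy3, with column medians of 0.871 to 1.064, and it served as an alternative. The dyes are as the labels give them, with no swaps.

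Mean spot intensity was background-corrected with normexp (offset 50), followed by loess within arrays with control spots at weight 0. Non-uniform spots were left out (at most 108 on an array), saturated spots were kept and spots of a probe averaged. Probes were named by accession (22951), current symbol (6659) or older symbol (3109) in RefSeq's gene list for GRCm38.p6, and 8455 kept the file's name. Probes with Cy5 well above background on 3 arrays or more were kept (19082 probes), and the brightest kept probe stood for its gene (14664 genes). A model of 4 group means over all 18 arrays was fitted with limma 3.58.1 in R 4.3.3 (files read with the package data.table, version 1.17.8), with eBayes and Benjamini-Hochberg adjustment; the script was tested on simulated data. All p-values are two-sided. From each gene list the called genes, or those with the smallest p, were named, as were the 10 genes most correlated with the members' mean. The members and lists were chosen with earlier results of these data known. Number of arrays limits the precision.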

Additional observations from a re-analysis of the deposited data

Results flagged for a closer look

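Groups of 5 arrays were checked for a single far array with Dixon's test, 21 sets in all, and chance would flag about 1 in 20. H2-Eb1 was flagged in the dissected central area, where replicate 5 had a ratio of 0.54 and the nearest array -0.20, a gap of 0.81 of the range. Ciita was flagged in the dissected peripheral area, where replicate 5 had 0.91 and the nearest array 0.19, a gap of 0.72 of the range. Both arrays came from slide 5. H2-Ab1 probe A_51_P215242, which stands for no result above, was well above background on 3 of 10 dissected and 0 of 8 normal arrays. The share of all probes with such a split was not counted. Ratios on the flagged arrays were 0.34 (dissected central 1), 0.645 (dissected peripheral 3) and -0.28 (dissected peripheral 5). The probe's mean was -0.10 in dissected and -0.13 in normal central arrays, and 0.03 and -0.13 in the peripheral groups.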

How the results depend on the processing

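No class II member was called by limma in any of 164 fits under 33 other settings over the 5 comparisons. These covered the normalization, the background offset, Cy5 alone, the dim-probe filter, the probe choice, slide, scan day, weak arrays and each array left out; the fits without the dissected arrays of slide 5 were added after seeing the data. For dissected minus normal central, the members' median ran from 0.09 (scan day 1 alone) to 0.49 (scan day 2 alone), and H2-DMb1 from 0.32 to 0.51 with adjusted p of at least 0.6. H2-Ab1 was -0.03, H2-Eb1 -0.24 and H2-Oa -0.32 on scan day 1 alone, against 1.06, 0.46 and 0.56 on scan day 2. For dissected minus normal peripheral, the median ran from -0.02 to 0.48, and Ciita was 1.30 in the authors' value table and 1.27 with Feature Extraction's own log ratio. The cause of these shifts was not tested. With the replicate block, dissected minus normal central had a median of 0.21 and 0 members called, and the peripheral comparison a median of 0.025 and 0 called. Same-numbered arrays correlated at 0.07 to 0.21 between the dissected areas and at -0.05 to 0.23 between the central groups. These arrays also share a slide, so the correlations cannot tell whether the numbers pair samples. Genes called between areas ran from 0 to 95 (41 in the fit reported) in normal and 0 to 193 (86) in dissected glands. Signal near background limits H2-DMa, Ciita and H2-Oa, and H2-Aa and H2-Ob could not be fitted.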
